A study of Mus musculus with 2 samples.

Results

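The liver X receptor genes Nr1h2 and Nr1h3, the retinoid X receptor genes Rxra and Rxrb, and the sterol and lipid genes Abca1, Abcg1, Mylip, Lpcat3 and Ch25h were followed in splenic CD8+ T cells kept with or without methionine. These 9 genes were chosen by name for their known roles, at a time when earlier results of these data were known, from the 54532 genes of the count table, and all 9 were found in it. The cells came from wild-type (WT) mice that the labels call ND, an abbreviation they do not explain. The complete group was in RPMI 1640 medium for 8 h and the methionine-free group in the same medium lacking methionine for 8 h, with 1 bulk RNA-seq library each. The age and number of the mice, any pooling of animals and the way the CD8+ T cells were purified are not stated in the labels. With 1 library per medium no difference has a replicate check, so no p-value is given.

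LXRs are nuclear receptors for oxysterols and for desmosterol, a late intermediate of cholesterol synthesis. They bind DNA as a pair with an RXR, and when a ligand is bound they turn on genes that move cholesterol out of the cell, lower its uptake and remodel membrane phospholipids. They act against SREBP2, the factor that turns on cholesterol synthesis and uptake when sterols are low. In T cells LXR signalling, mostly through LXRβ, is known to restrain proliferation.

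Without methionine Rxra was higher and Abca1, Abcg1 and Lpcat3 were lower by 1.5-fold or more. Transcripts of Rxra, which encodes RXRα, were 1.98-fold higher (95% counting interval 1.71 to 2.31), and those of Nr1h2, which encodes LXRβ, 1.496-fold higher (1.41 to 1.59). Abca1, the cholesterol exporter to lipid-poor apolipoprotein A-I, was 4.85-fold lower (3.0 to 8.17). Abcg1, the exporter to high-density lipoprotein, was 2.53-fold lower (2.13 to 3.03), and Lpcat3, a phospholipid-remodelling acyltransferase, 2.10-fold lower (1.88 to 2.34). Mylip, which encodes the ubiquitin ligase IDOL, had a ratio of 0.949 whose interval held 1 (0.745 to 1.21). A fold here is the ratio of read counts after scaling of the libraries, and the interval reflects counting noise alone and says nothing of variation among cultures or mice.

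The start regions of 3 target genes are shown because Abca1 and Lpcat3 lay lower together while Mylip did not. Each is the stretch of up to 250 bases before the RefSeq start on build GRCm38.p6, read 5′ to 3′ on the strand of the gene and ending before the first annotated exon base. LXR-RXR pairs are known to bind a direct repeat of AGGTCA with 4 bases between the copies. The motif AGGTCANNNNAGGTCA was searched on both strands, and the capitals mark the window with the fewest mismatches over its 12 fixed letters. Abca1 (chr4:53159896-53160145, minus strand), Lpcat3 (chr6:124662854-124663026, plus strand) and Mylip (chr13:45389492-45389741, plus strand) read as follows.
Abca1: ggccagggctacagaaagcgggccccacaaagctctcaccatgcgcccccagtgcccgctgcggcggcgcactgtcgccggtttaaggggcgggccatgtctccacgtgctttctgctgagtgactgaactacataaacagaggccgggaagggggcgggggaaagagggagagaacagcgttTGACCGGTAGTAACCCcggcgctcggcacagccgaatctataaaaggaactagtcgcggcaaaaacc
Lpcat3: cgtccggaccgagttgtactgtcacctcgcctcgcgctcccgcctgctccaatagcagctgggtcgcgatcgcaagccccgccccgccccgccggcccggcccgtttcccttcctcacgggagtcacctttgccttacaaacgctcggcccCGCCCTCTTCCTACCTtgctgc
Mylip: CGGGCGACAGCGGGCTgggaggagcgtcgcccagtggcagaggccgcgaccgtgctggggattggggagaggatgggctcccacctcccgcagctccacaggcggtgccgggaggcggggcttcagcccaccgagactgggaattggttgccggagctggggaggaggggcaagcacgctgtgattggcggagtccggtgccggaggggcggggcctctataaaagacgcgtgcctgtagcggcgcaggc

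The Abca1 window lies 67 to 52 bases before the start and reads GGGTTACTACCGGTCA on the other strand, with 3 mismatches. The Abca1 promoter is known to hold an LXR element of this type. The nearest window of Lpcat3 had 4 mismatches and that of Mylip 6. A window with at most 3 mismatches was found in 18.5% of all 32851 RefSeq promoter windows of the same length, so such matches are common. One with at most 4 was found in 70.6% and one with at most 5 in 99.5%. Of the 9 genes, 8 had an entry, in 11 windows, and Abcg1 had none. Besides Abca1, a window of Rxra had 3 mismatches, and the other windows had 4 or more. These letters describe the regions and do not show binding, and LXR also acts at distant sites that were not searched. The 3 genes shown were picked by their differences, and no link between mismatches and transcript levels was tested.

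The complete-medium library held 14646527 counts and the methionine-free library 19647681. Levels are given in CPM, counts per 1000000 scaled counts, where 1 count is worth 0.0681 (complete) and 0.0510 CPM (methionine-free). All 10 T cell marker genes were detected in both libraries, with Cd8a at 664 and 527 CPM, while Cd4 had 9 and 11 counts. Of the 13041 genes that averaged 10 or more counts, 15.7% lay higher by 1.5-fold or more without methionine and 18.1% lay lower by 1.5-fold or more. At 2-fold these shares were 5.89% and 9.49%. The median log2 difference of these genes was 0.04.

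Of the 9 genes, 7 reached the mean of 10 counts. Among these 7, 1 was higher by 1.5-fold or more (Rxra) and 3 were lower by 1.5-fold or more (Abca1, Abcg1 and Lpcat3), or 14.3% and 42.9%, beside the 15.7% and 18.1% of all genes. At 2-fold none was higher and the same 3 were lower, beside 5.89% and 9.49%. Nr1h2, with a ratio of 1.496, lay just under the threshold. The median log2 difference of the 7 was -0.08, since the receptors and the targets lay on opposite sides of 0. In bulk RNA a lower level from fewer cells that carry a transcript and one from less RNA per cell cannot be told apart.

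**Figure D1:**
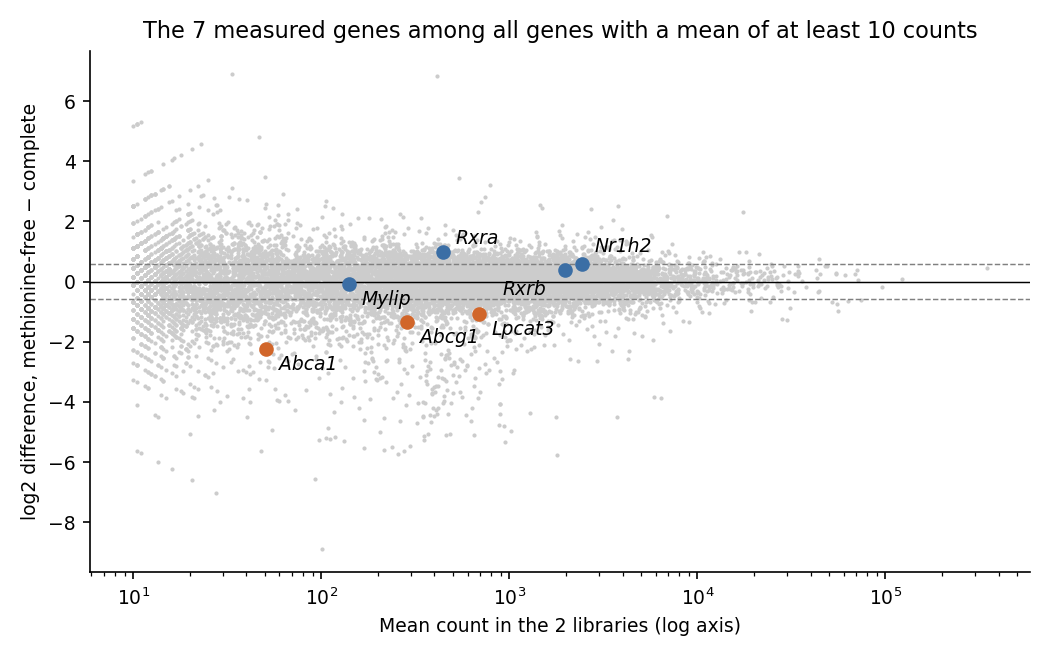
Log2 difference between the methionine-free and the complete-medium library (vertical) against the mean count in both libraries (horizontal, log axis) for the 13041 genes averaging 10 or more counts (grey), with the 7 measured genes in colour, orange where lower by 1.5-fold or more. Dashed lines mark 1.5-fold. Abca1, Abcg1 and Lpcat3 lie under the lower line and Rxra above the upper one.

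Among the receptors, Nr1h2 held nearly all LXR reads. Nr1h2 (ENSMUSG00000060601, chromosome 7, 44549616 to 44553951, minus strand) gave 1623 counts in the complete library against 3240 in the methionine-free one, or 111 and 165 CPM. Nr1h3, which encodes LXRα, the form of liver, fat and macrophages, had 4 and 8 counts. Nr1h3 made up 0.246% of the reads of both LXR genes in complete medium (0.0670 to 0.628, exact binomial interval) and 0.246% without methionine (0.106 to 0.485). Its ratio of 1.5 spanned 0.402 to 6.80, and at 4 and 8 reads no difference could be resolved. The LXR transcripts of these cells were thus almost all of the β form in both media, and of the 13041 genes 15.9% had a higher log2 difference than Nr1h2.

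Both RXR genes were expressed and they differed in size of difference. Rxra (ENSMUSG00000015846, chromosome 2, 27676440 to 27762957, plus strand) had 245 counts in the complete library against 648 in the methionine-free one, or 16.7 and 33.1 CPM. Rxrb (ENSMUSG00000039656, chromosome 17, 34031812 to 34038399, plus strand), the gene of RXRβ, had 1431 and 2521 counts, or 97.4 and 129 CPM, a ratio of 1.32 (1.24 to 1.41). Rxrg, the gene of RXRγ, had no count in either library. The share of Rxra in the reads of Rxra and Rxrb was 14.6% (13.0 to 16.4) in complete medium and 20.4% (19.1 to 21.9) without methionine, a comparison that does not depend on the scaling between libraries. Per length, Rxra stayed below Rxrb, at 0.125 of its level in the complete library against 0.187 in the methionine-free one. The Rxra-to-Rxrb ratio was thus 1.5-fold higher without methionine (1.28 to 1.77, exact conditional interval), and 6.02% of all tested genes had a higher log2 difference than Rxra.

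The cholesterol exporters were the 2 genes with the lowest log2 differences among the 7. Abca1 (ENSMUSG00000015243, chromosome 4, 53030787 to 53159895, minus strand) gave 80 counts in the complete library against 22 in the methionine-free one, or 5.45 and 1.12 CPM, a log2 difference of -2.25. Abcg1 (ENSMUSG00000024030, chromosome 17, 31057675 to 31117988, plus strand) had 374 and 197 counts, or 25.5 and 10.1 CPM, a log2 difference of -1.34. Of the 13041 genes, 2.41% had a lower log2 difference than Abca1 and 5.89% a lower one than Abcg1. Abca1 rested on few reads, and its interval was the widest among the 7. Within the reads of both exporters the share of Abca1 was 17.6% (14.2 to 21.4) in complete medium and 10.0% (6.40 to 14.8) without methionine, and the Abca1-to-Abcg1 ratio was 1.91-fold lower (1.14 to 3.33).

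Lpcat3 puts polyunsaturated fatty acids into membrane phosphatidylcholine. Lpcat3 (ENSMUSG00000004270, chromosome 6, 124663027 to 124704418, plus strand) had 840 counts in the complete library against 534 in the methionine-free one, or 57.2 and 27.3 CPM, a log2 difference of -1.07. It shares 334 exon bases with Emg1 on the opposite strand, which had 2345 and 2916 counts, and without stated use of strand the reads of the pair there cannot be told apart. The ratio of Abcg1 to Lpcat3 had a change of 0.829 between media whose interval held 1 (0.672 to 1.02), whereas the Abca1-to-Lpcat3 ratio was 2.31-fold lower without methionine (1.41 to 3.94).

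Mylip was the measured target gene whose interval held a ratio of 1. Its product IDOL is induced by LXR and marks lipoprotein receptors such as VLDLR and LRP8 for breakdown. Mylip (ENSMUSG00000038175, chromosome 13, 45389742 to 45412022, plus strand) had 124 counts in the complete library against 157 in the methionine-free one, or 8.44 and 8.01 CPM, a log2 difference of -0.08. Against Mylip in the same library, Abca1 was 4.59-fold lower (2.65 to 8.18), Abcg1 2.40-fold lower (1.78 to 3.25) and Lpcat3 1.99-fold lower (1.52 to 2.60). These 3 intervals do not depend on library scaling, so the targets differed among themselves by more than counting error.

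Ch25h encodes cholesterol 25-hydroxylase, which makes the LXR ligand 25-hydroxycholesterol. Ch25h (ENSMUSG00000050370, chromosome 19, 34473778 to 34475164, minus strand) gave 2 counts in the complete library against 0 in the methionine-free one. Both lie under the floor of 3 counts that a count of 0 allows, which is 0.204 (complete) and 0.153 CPM (methionine-free), so no fold is given and no difference could be resolved.

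**Figure D2:**
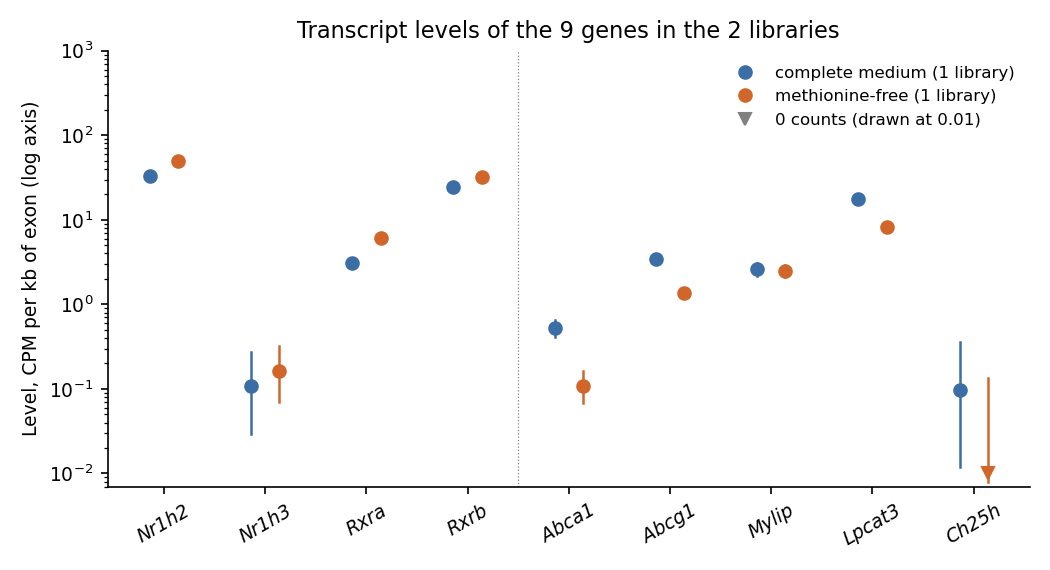
Level of the 9 genes in CPM per kb of annotated exon (vertical, log axis) in the complete-medium (blue) and the methionine-free library (orange), with 95% exact binomial intervals that cover counting error. Left of the dotted line Nr1h2, Rxra and Rxrb lie higher without methionine and the intervals of Nr1h3 overlap, while to the right Abca1, Abcg1 and Lpcat3 lie lower. The triangle marks the 0 counts of Ch25h, drawn at 0.01.

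Per kb of exon, the level of Nr1h2 was the highest of the 9 genes in both libraries, at 32.9 CPM per kb in the complete library against 49.3 in the methionine-free one. Rxrb followed at 24.5 and 32.4, and Lpcat3 at 17.5 and 8.34. In complete medium Abcg1 at 3.49, Rxra at 3.05 and Mylip at 2.61 CPM per kb came next, and neighbours in that order had overlapping counting intervals. Without methionine the order of these 3 differed, with Rxra at 6.05, Mylip at 2.48 and Abcg1 at 1.38 CPM per kb and no overlap between them. Abca1, at 0.526 CPM per kb in complete medium, lay above Nr1h3 and Ch25h there, but at 0.108 without methionine its interval overlapped that of Nr1h3, at 0.162. The level of Abcg1 per kb was 0.106 of that of Nr1h2 in the complete library against 0.0279 in the methionine-free one.

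Lrp8 and Vldlr, genes of receptors that IDOL degrades, had lower transcript levels without methionine. Lrp8, the apolipoprotein E receptor 2 gene, had 961 counts in the complete library against 407 in the methionine-free one and was 3.15-fold lower (2.80 to 3.55). Vldlr, a lipoprotein receptor gene, had 126 and 25 counts, and its ratio to Mylip was 6.35-fold lower (3.83 to 10.8). None of the 4 measured ubiquitin partner genes of IDOL, 3 of them conjugating enzymes and 1 the deubiquitinase gene Usp2, was past 1.5-fold. Most genes were not past it either, 8627 of all 13041. Ube2d2a went from 147 to 181 CPM, Ube2d1 from 25.6 to 29.8 CPM and Ube2d3 from 497 to 565 CPM.

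**Figure D3:**
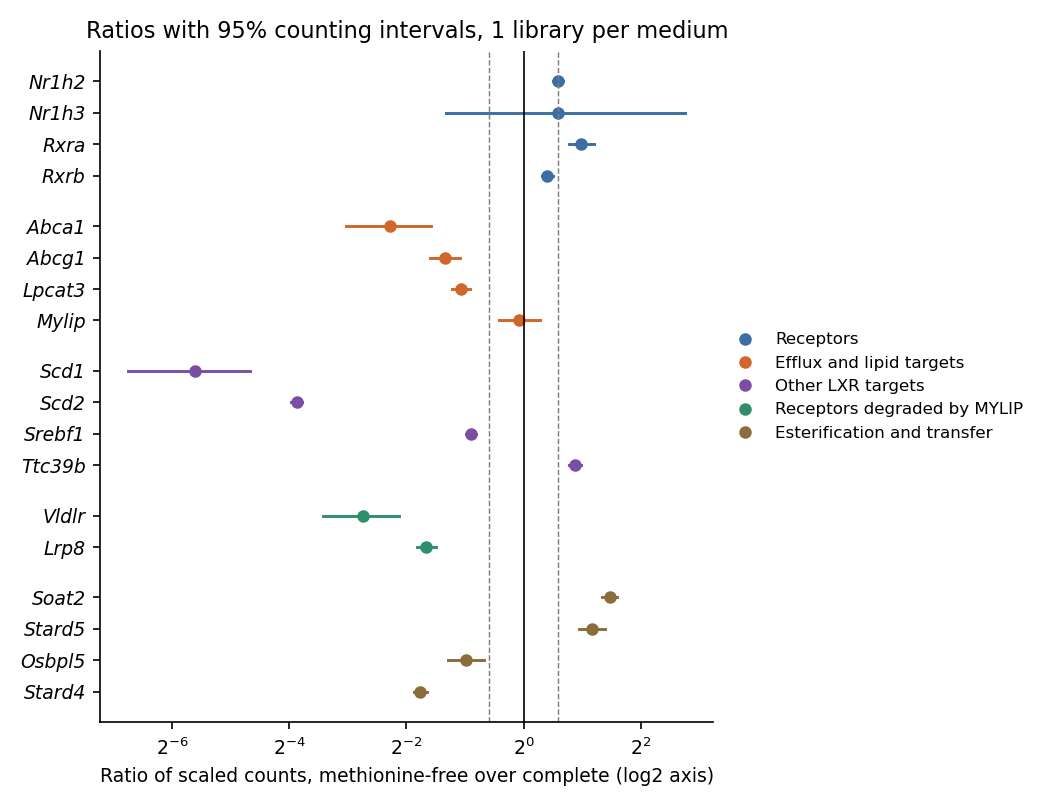
Ratio of scaled counts, methionine-free over complete medium (horizontal, log2 axis), with 95% counting intervals for 8 of the 9 genes and for other genes named in the text, 1 library per medium. The solid line marks a ratio of 1 and the dashed lines 1.5-fold. Abca1, Abcg1, Lpcat3 and Vldlr and Lrp8, of receptors degraded by IDOL (MYLIP in the key), lie left of the lines, while Mylip lies on the line of 1 and Rxra and Soat2 lie to the right.

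Other LXR targets and linked genes went in different directions. Of 25 genes in that list, 12 reached the mean of 10 counts, of which 1 was higher by 1.5-fold or more and 3 lower by 1.5-fold or more, beside 15.7% and 18.1% of all genes, with a median log2 difference of -0.36 beside 0.04. At 2-fold none was higher and 2 were lower. Scd2, a stearoyl-CoA desaturase gene, had 11744 counts in the complete library against 1069 in the methionine-free one, or 14.7-fold lower (13.8 to 15.6). Scd1 of the same family went from 22.4 to 0.459 CPM. Srebf1, the gene of the lipogenic factor SREBP1, had 2731 and 1949 counts and was 1.87-fold lower (1.76 to 1.98), and it shares 109 exon bases with Rai1 on the other strand. Ttc39b, whose product is known to promote breakdown of LXR protein, had 1222 and 2996 counts and was 1.84-fold higher (1.72 to 1.97). Apoe, a cholesterol acceptor gene, had 216 and 363 counts, a ratio of 1.26 (1.06 to 1.5). In this list 8 genes had 0 counts in both libraries, among them Mertk, Cd5l and Lpl, LXR targets of macrophages.

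Of 18 measured cofactor genes of nuclear receptors, 2 were higher by 1.5-fold or more and none lower, a share of higher genes under the 15.7% of all genes, and none was higher at 2-fold. The median log2 difference was 0.22, and the coactivator gene Ncoa3, the methyltransferase gene Carm1 and the deacetylase gene Hdac3 had ratios of 0.865, 0.790 and 0.838. Sirt1, which encodes a deacetylase that acts on LXR, had 551 counts in the complete library against 1435 in the methionine-free one and was 1.95-fold higher (1.77 to 2.16). Crebbp, the acetyltransferase gene of CBP, had 1087 and 2501 counts and was 1.72-fold higher (1.61 to 1.85), while its relative Ep300 had a ratio of 1.42 (1.34 to 1.51). The corepressor gene Ncor1 had a ratio of 1.35 (1.30 to 1.41).

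Of 12 other genes of enzymes that make or remove LXR ligands, 6 reached the mean of 10 counts. Of these 4 were lower by 1.5-fold or more and 1 was higher, beside 18.1% and 15.7% of all genes, and at 2-fold 4 were lower and none higher. Their median log2 difference was -1.29. Dhcr7, a late enzyme of cholesterol synthesis, had 807 and 351 counts and was 3.07-fold lower (2.70 to 3.49). Hsd11b1, a steroid and oxysterol reductase gene, had 73 and 35 counts and was 2.78-fold lower (1.84 to 4.29), and Ephx1, an epoxide hydrolase gene, had 360 and 222. The higher gene was Sult2b1, which encodes a sulfotransferase that inactivates oxysterols, with 35 and 88 counts, a ratio of 1.88 (1.26 to 2.87). The oxysterol makers Cyp27a1 and Cyp46a1 had at most 3 counts in each library.

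Other transporters and handlers of sterols included genes on both sides. Of 24 measured sterol handling genes, 3 were higher by 1.5-fold or more and 4 lower by 1.5-fold or more, shares no larger than the 15.7% and 18.1% of all genes, and at 2-fold 2 were higher and 2 lower. Their median log2 difference was -0.06. Soat2, a cholesterol esterification enzyme gene, had 597 counts in the complete library against 2209 in the methionine-free one and was 2.77-fold higher (2.53 to 3.04). Its relative Soat1 went from 49.6 to 30.7 CPM, and the Soat2-to-Soat1 ratio was 4.47-fold higher without methionine (3.88 to 5.16). Gramd1b, which encodes a carrier of plasma membrane cholesterol to the endoplasmic reticulum, was 1.63-fold higher (1.56 to 1.71). Stard5 was 2.25-fold higher (1.93 to 2.62), but it shares 1202 exon bases with Il16 on the opposite strand, which had 875 and 1005 counts. Stard4, a sterol transfer protein gene, was 3.39-fold lower (3.13 to 3.67), Osbpl5 1.97-fold lower (1.59 to 2.44) and Osbpl1a, with 43 and 9 counts, 6.37-fold lower (3.06 to 14.9).

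Of the 6 other measured ABCA and ABCG genes, relatives of the exporters, 4 were lower by 1.5-fold or more and none higher, beside 18.1% and 15.7% of all genes. At 2-fold 1 of the 6 was lower and none higher, beside 9.49% and 5.89% of all genes. With a minimum mean of 100 counts, which left only Abca2, Abca3 and Abca7, 1 was lower by 1.5-fold or more. The 6 had a median log2 difference of -0.92. Abca2, a lysosomal lipid transporter gene, had 2439 counts in the complete library against 1657 in the methionine-free one and was 1.96-fold lower (1.84 to 2.09). Abcg3 had 69 and 48 counts, Abcg2 had 44 and 31, and Abca5 had 16 and 10 with an interval that held 1. Abca3 had a ratio of 1.09 (0.976 to 1.22). Among the 12 other measured lysophospholipid acyltransferase genes 3 were lower by that measure and none higher, beside 18.1% and 15.7% of all genes. Their median log2 difference was -0.29. The 3 lower genes were Mboat2 at 3.19-fold lower (2.17 to 4.80), Mboat1 at 2.47-fold (2.06 to 2.96) and Lpcat1 at 1.99-fold (1.76 to 2.27). The Lpcat3-to-Lpcat1 ratio changed by a factor of 0.950, with an interval that held 1 (0.803 to 1.13).

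**Figure D4:**
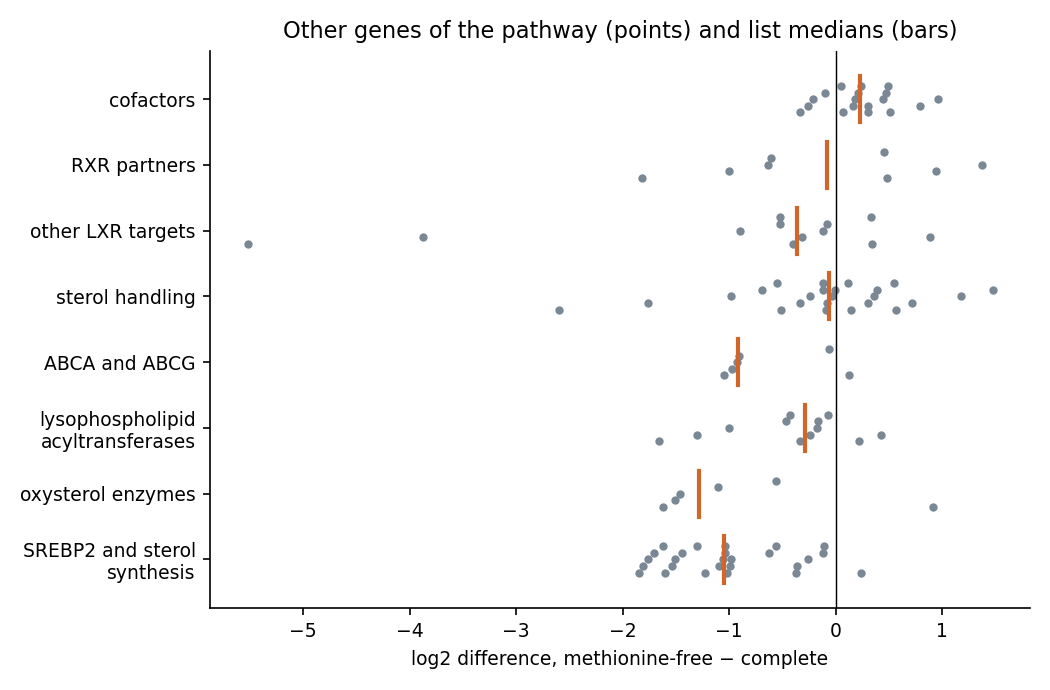
Log2 difference, methionine-free minus complete medium (horizontal), of each measured gene in 8 lists of pathway genes without the 9 genes themselves (points), with the median of each list (orange bars). Points of the oxysterol enzyme list and of the SREBP2 and sterol synthesis list lie mostly under 0, and the cofactor list has its median at 0.22.

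Most measured genes of sterol synthesis and SREBP2 control, a system that turns on when sterols are low, lay lower as well. Of these 26 genes, 19 were lower by 1.5-fold or more and none higher, beside 18.1% and 15.7% of all genes. The other 7 were not past 1.5-fold, and the median log2 difference of the 26 was -1.05. Acat2, an acetoacetyl-CoA thiolase gene, went from 61.5 to 17.5 CPM and Srebf2 itself from 401 to 334 CPM. The exporter genes Abca1 and Abcg1 and most measured genes of sterol synthesis and SREBP2 control thus had lower levels in the methionine-free library.

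Markers of other spleen cells were detected, and some differed between the media. Of 15 macrophage and monocyte markers, 12 were detected in each library, and their summed level was 57.1 and 67.7 CPM, of which Cst3 made up most, and without Cst3 it was 8.10 (complete) and 9.24 CPM (methionine-free). The defining genes Lyz2, with 4 and 4 counts, Adgre1, with 8 and 5, and Csf1r, with 6 and 0, were near 0, and Cd5l was at 0. Most measured B cell markers lay lower, 5 of 7 by 1.5-fold or more, beside 18.1% of all genes. Cd79a, with 15 and 20 counts, had a ratio of 0.999 and Ms4a1, with 13 and 25, one of 1.44. The summed level of the B cell markers was 209 and 128 CPM. Most of that was Ighm, the immunoglobulin M heavy chain gene, at 196 and 120.1 CPM, and without Ighm the sum was 13.8 and 7.71 CPM. Of 8 dendritic cell markers 3 were measured, and 2 of them, Zbtb46 and Flt3, were higher by 1.5-fold or more, beside 15.7% of all genes. The summed level of the 8 was 8.38 and 26.9 CPM, or 3.13 and 8.62 CPM without Zbtb46. Flt3 had 33 and 149 counts. Itgax had 8 and 16 counts and Xcr1 5 and 2, and Clec9a, Siglech, Cd209a and Clec10a had at most 1 in each library. NK cell markers summed to 159.9 and 136 CPM, nearly all of it Eomes, and to 0.477 and 0.153 CPM without it, granulocyte markers to 0.136 and 0.102 CPM, red cell and platelet markers to 3.54 and 3.83 CPM and CD4+ T cell markers to 4.29 and 5.36 CPM. The part of these cells in the values of Abca1, Abcg1 and the other genes was not tested.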

How the data were processed

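The deposited table holds unscaled whole-number read counts for 54532 Ensembl identifiers in 2 bulk RNA-seq libraries, 1 per medium. The submitters' processing notes name mm10. Aligner, counting tool, gene models and strand setting: not given in the sources used here. RNA came from TRIzol extraction and libraries from a whole-RNA or an mRNA kit, per the labels' protocols, which do not say which kit made which library. Columns were matched to samples by the control and methionine wording of their names, titles and descriptions. The control column is numbered 2 and the methionine-free column 1, which the labels do not explain.

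Symbols, positions (1-based) and exon lengths came from GENCODE M21, on the same assembly, which matched 54495 identifiers; 37 did not match. Counts were scaled by TMM with edgeR 4.0.16 in R 4.3.3 (factors 1.003 and 0.997). Ratios carry exact conditional (Clopper-Pearson) 95% intervals from scipy 1.17.1 in Python 3.11.15. Log2 differences added 0.5 counts in proportion to depth, genes averaging 10 or more counts were taken as measured, and genes were counted by ratio alone at 1.5-fold. Reads carry no named molecular identifier, and the intervals and floors hold for counting noise alone. Within-library ratios used the conditional odds ratio of 4 counts. The steps were tested on simulated counts with 200 altered genes. Promoter sequences are from RefSeq on GRCm38.p6.

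The 9 genes, 11 pathway lists and 8 marker lists were chosen with earlier results of these data known. The rule for naming took the 9 genes, the substrates of IDOL, Srebf1, Srebf2 and the 3 genes of each pathway list (4 for other targets and sterol handling) with the largest absolute log2 difference among genes averaging 50 or more counts. Some genes that this rule takes are not reported here, though the counts over lists include them. Named outside it, after their values were seen, were Apoe, Mertk, Cd5l, Lpl, Ncor1, Ncoa3, Carm1, Hdac3, Usp2, Ephx1, Sult2b1, Cyp27a1, Cyp46a1, Soat1, Gramd1b, Osbpl1a, Abcg2, Abca5, Abca7, Rxrg, Vdr, Thrb, Ppard, Il1b, Il6, Nos2, Ptgs2, Mmp9 and the overlapping genes and markers. Alternatives were other scalings (DESeq2 1.42.0 size factors, upper quartile, library size, protein-coding nuclear genes), a prior count of 2, other count minimums, 2-fold, and transcript length in place of exon length.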

Additional observations from a re-analysis of the deposited data

How the results depend on the processing

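The log2 differences of the 8 genes with a fold moved little under the other scalings and the prior count of 2: Nr1h3, with 4 and 8 reads, ranged most, from 0.43 to 0.55, Rxra from 0.97 to 1.0, Rxrb from 0.39 to 0.41, Nr1h2 from 0.57 to 0.59, Abca1 from -2.26 to -2.17, Abcg1 from -1.35 to -1.33, Lpcat3 from -1.08 to -1.06 and Mylip from -0.09 to -0.06. Of the 9 genes, 2 were at least 1.5-fold higher with upper quartile scaling, which put Nr1h2 at 1.508, and 0 at the threshold of 2-fold, while 3 were lower under every scaling and at 2-fold, 4 with no count minimum, where Ch25h enters, and 2 with a minimum mean of 100 counts, where Abca1 drops out. Of the 159 other pathway genes pooled, 119 were measured. Of these 16 were higher and 40 lower by 1.5-fold or more, beside 15.7% and 18.1% of all genes. At 2-fold 8 were higher and 28 lower, beside 5.89% and 9.49%. The list of sterol synthesis and SREBP2 control alone gave 19 of the 40 lower genes, and 16 of the 28 at 2-fold. With a minimum mean of 100 counts 10 were higher and 30 lower, and with no minimum 22 and 47. The shares of all genes were not computed at these 2 settings, so these counts have no background beside them. With the longest transcript as length, the level per kb became 55.3 and 82.7 CPM for Nr1h2, 37.1 and 49.0 for Rxrb, 24.1 and 11.5 for Lpcat3, 4.37 and 1.72 for Abcg1, and 6.74 for Rxra without methionine, and the order of the 9 genes was the same in each library. No paired analysis was possible because each medium has 1 library, and for the same reason no library could be left out. Depth limits Nr1h3 and Ch25h, which cannot show a difference, and Abca1, whose interval is wide.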

Other observations

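Nuclear receptors that share RXR as a partner went in different directions. Of 8 such genes measured besides the LXR and RXR genes, 2 lay higher by 1.5-fold or more and 4 lower by 1.5-fold or more, beside 15.7% and 18.1% of all genes, and at 2-fold 1 was higher and 2 were lower. Their median log2 difference was -0.08. With a minimum mean of 100 counts 1 was higher and 3 were lower by 1.5-fold or more, with no share of all genes computed at that minimum. Nr4a1, an early response gene of T cell receptor signalling, had 3988 counts (complete) and 10226 (methionine-free) and was 1.92-fold higher (1.85 to 1.99). Vdr, the vitamin D receptor gene, had 7 and 25 counts, a ratio of 2.68 (1.13 to 7.33). Thra, a thyroid hormone receptor gene, was 2.01-fold lower (1.64 to 2.46) and shares 263 exon bases with Nr1d1 on the opposite strand. Rara, a retinoic acid receptor gene, was 1.56-fold lower (1.41 to 1.72), Ppard, of the fatty acid sensor PPARδ, 1.53-fold (1.38 to 1.70), and Thrb had 17 and 6 counts.

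Of 10 inflammatory genes that ligand-bound LXR is known to hold down in macrophages, 7 reached the mean of 10 counts, and all 7 were at least 1.5-fold higher without methionine, beside 15.7% of all genes, 5 of them at least 2-fold, with a median of 1.37 beside 0.04 for all genes. Cxcl10, a chemokine gene, had 161 and 483 counts and was 2.25-fold higher (1.88 to 2.70). Tnf, the tumour necrosis factor gene, had 466 and 1031 counts and was 1.66-fold higher (1.48 to 1.85), and Il12b, the gene of the p40 subunit of interleukins 12 and 23, had 49 and 187, a ratio of 2.86 (2.08 to 4.0). Il1b, Il6, Nos2 and Ptgs2 had at most 77 counts in each library. Il1b, with 6 and 25 counts, and Il6, with 9 and 33, reached the mean of 10 only through the methionine-free library, where they were higher. Mmp9, with 4 and 0 counts, went the other way and did not reach that mean. The count of 7 of 7 thus partly follows from the count minimum. With 3 genes past a mean of 100 counts, the list rests on low counts. The summed level of dendritic cell markers was higher in the same library (8.38 and 26.9 CPM). Most of that sum was Zbtb46, with 77 and 359 counts, and Flt3, with 33 and 149. The other dendritic cell markers had at most 16 counts in each library. The part of dendritic cells in these values was not tested.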
